A study of Mus musculus with 15 samples.

Results

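The Ddx54KD libraries came from the mouse embryonic stem cell line E14 after treatment with small interfering RNA against the RNA helicase gene Ddx54. They were compared with EGFPKD libraries, made from the same line after small interfering RNA against EGFP, a fluorescent protein gene used as the control. These are 6 of the 15 libraries of the series, 3 biological replicates in each of the 2 groups. The other 9 libraries came from knockdowns of the related helicases Ddx10, Ddx24 and Ddx27 and are used below as a second point of reference. All groups shared the line, the gelatin-coated plates, the lipid transfection reagent, the 16 h of transfection and the harvest at 48 h, so an untransfected state is not part of the comparison. No other treatment or genetic change is given for any group. The interfering RNAs are described no further. Poly(A) RNA was measured in bulk, in which fewer cells of a type and less RNA per cell cannot be told apart.

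The title of the study speaks of R-loop-binding proteins that act in ribosomal RNA processing; an R-loop is a stretch of RNA paired with DNA. DEAD-box proteins such as DDX54 use ATP to remodel RNA, and many of them act in the nucleolus, where ribosomal RNA is transcribed, cut and packed with ribosomal proteins. Stem cells in culture divide fast and make many ribosomes. When ribosome assembly is disturbed, unbound ribosomal proteins can block the degradation of p53, and the genes p53 activates then rise. ATF4 is a factor that responds to amino acid shortage and other stress. What follows describes genes and pathways beyond a list of 44 p53 targets and a list of 46 ATF4 targets. Members of these lists were left out when the largest changes were picked. Some of them, such as Herpud1 and Fbxw7, also belong to other lists or comparisons and count there. Neither list need be complete, so further targets may be among the genes described.

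The 6 libraries held 26989655 to 27708782 expected counts (reads per gene as estimated from the alignments) and at least 1 count in 16847 to 17059 genes. Of 23845 genes, 14335 passed the filter on low counts and were tested. Levels below are edgeR's CPM, the share of a library's counts that a gene holds, scaled for library composition. Pou5f1, a core pluripotency factor, stood at 1040, 1100 and 1081 CPM in EGFPKD and 964, 1021 and 902 CPM in Ddx54KD, and the pluripotency factor Nanog at 634, 646 and 632 and 557, 573 and 545 CPM. Of 24 fibroblast markers 14 passed the filter, among them Vim at 253, 274 and 274 CPM in EGFPKD. The other 10, which include Col1a2, Col3a1, Dcn and Lum, did not. The list summed to 701, 677 and 711 TPM in EGFPKD. On the first principal component of the 6 libraries, which held 58.2% of the variance, EGFPKD lay between -29.4 and -22.8. Ddx54KD replicates 1, 2 and 3 lay at 15.8, 26.5 and 33.2.

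Ddx54 itself stood at 202, 204 and 205 CPM in EGFPKD and at 64.3, 60.2 and 46.2 CPM in Ddx54KD. All Ddx54KD libraries were lower than all controls, and replicate 3, which lay farthest from the controls on the first component, had the lowest level. The remaining level was 27.95% ± 4.68 of control (SD, n = 3), a log2 change of -1.84 ± 0.08 (SE) with an edgeR adjusted p of 2.90e-09. In the authors' deposited table the ratio was 0.278. The gene spans 120613082 to 120628592 on chromosome 5 (RefSeq, GRCm38.p6). In the 9 libraries of the other knockdowns Ddx54 lay between 172 and 192 CPM.

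Against EGFPKD, 3483 genes (24.3% of those tested) passed the edgeR quasi-likelihood test at a Benjamini-Hochberg adjusted p under 0.05, 1878 higher (13.1%) and 1605 lower (11.2%). The increases were larger than the decreases: the median log2 change was 0.53 among genes called higher and -0.29 among genes called lower, and 470 of the 534 genes past 2-fold (3.73% of those tested) were higher. The replicate numbers pair the libraries across groups, and with the number as a block 5570 genes (38.9%) were called, 2873 higher (20%) and 2697 lower (18.8%). With no block, 2232 genes were called without Ddx54KD replicate 3. The authors' deposited table, from the program EBSeq, held 2445 genes at a posterior probability of differential expression of at least 0.95, and 2243 of them were among the 3483. Some called genes described below were under 0.95 there, among them Gprc5a, Derl3, Hnf4a, Twist1, Rps10, Rps15, Rpl23, Aldoa and Thy1.

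**Figure D1:**
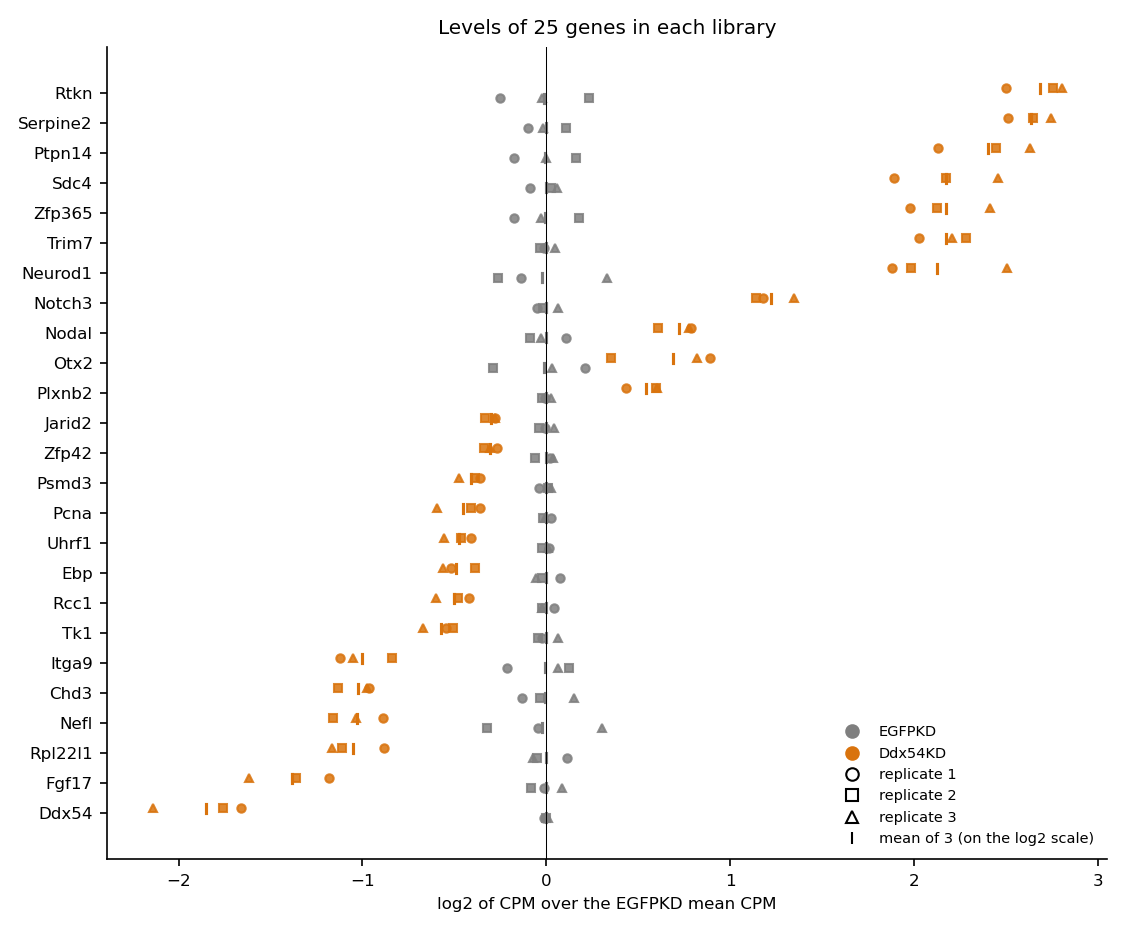
Levels of 25 genes in each of the 6 libraries, as log2 of CPM over the mean of EGFPKD (horizontal axis). Symbols mark replicates, grey EGFPKD and orange Ddx54KD, and short vertical lines the mean of 3. Genes with log2 changes near 2 or above, such as Serpine2 and Ptpn14, and those near -0.4, such as Psmd3, both separate the groups, and Ddx54KD replicate 3 is often the farthest from control, as it is for Ddx54.

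Predicted gene models left out, the 15 called genes outside the p53 and ATF4 lists with the largest increases, among those with a mean of at least 5 TPM in EGFPKD or Ddx54KD and no overlap between the groups, encode proteins of many kinds. Some genes below 5 TPM, given further on with their lists, had changes as large. Cpz, a secreted carboxypeptidase, rose from 0.512, 0.896 and 1.40 CPM to 6.81, 10.7 and 12.4 CPM, a log2 change of 3.41 ± 0.36 (SE). Its 3 knockdown values were all several times the highest control value. Serpine2, a secreted inhibitor of serine proteases, rose from 6.62, 7.62 and 6.99 CPM to 40.4, 44.3 and 47.6 CPM, with a log2 change of 2.64 ± 0.15 and an edgeR adjusted p of 4.63e-08. Ptpn14, a tyrosine phosphatase that binds the Hippo pathway effector YAP, rose from 24.01, 30.4 and 27.1 CPM to 119, 148 and 169 CPM (2.42 ± 0.14, adjusted p 4.63e-08). The spread between replicates was small beside both changes, and Ddx54KD replicate 1 was the lowest of its group for each of these 3 genes.

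Of the other genes with large increases, rhotekin (Rtkn), a signalling adaptor, rose from 4.61 ± 0.774 to 29.8 ± 3.28 CPM (mean and SD, n = 3) and the heparan sulfate proteoglycan Sdc4 from 32.4 ± 1.70 to 148 ± 29.01 CPM. The secreted glutathione peroxidase Gpx3 rose from 12.7 ± 2.51 to 65.2 ± 13.6 CPM and the tyrosine phosphatase Ptp4a3 from 39.03 ± 4.32 to 159 ± 24.4 CPM. Neurod1, a transcription factor of neurons and endocrine cells, stood at 8.37, 7.69 and 11.6 CPM in EGFPKD and at 33.9, 36.5 and 52.4 CPM in Ddx54KD. The highest control value was well under the lowest knockdown value, and its log2 change was 2.15 ± 0.30 (edgeR adjusted p 7.80e-05). Log2 changes were 3.02 for the tetraspan membrane protein Ms4a10, 2.44 for the phospholipid-binding annexin Anxa8, 2.20 for Fam198b and 2.18 for the zinc-finger gene Zfp365. They were 2.17 for the ubiquitin ligase Trim7, 2.14 for the Rab27 effector Sytl1 and 2.12 for the melanocyte antigen Mlana. None of these 15 genes overlapped between the groups, which was a condition for naming them.

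The decreases named by the same rule were smaller. Fgf17, which encodes a fibroblast growth factor, stood at 40.7, 38.8 and 43.6 CPM in EGFPKD and fell to 18.1, 15.97 and 13.4 CPM, a log2 change of -1.37 ± 0.18 (edgeR adjusted p 5.20e-05). Rpl22l1, the paralogue of the ribosomal protein gene Rpl22, fell from 59.6, 53.3 and 52.5 CPM to 29.9, 25.5 and 24.6 CPM (-1.05 ± 0.11, adjusted p 7.75e-06). For both genes every knockdown library lay below every control library, as the rule required. Rpl22 itself was not called, at a log2 change of 0.02 (adjusted p 0.859). Chd3, a remodeller of the NuRD complex, fell from 37.6 ± 3.85 to 18.5 ± 1.20 CPM, and the neurofilament gene Nefl from 39.9 ± 8.71 to 19.6 ± 1.87 CPM. The integrin Itga9 fell from 41.02 ± 4.94 to 20.5 ± 2.13 CPM and Inhbb, which encodes a subunit of activin B, from 50.7 ± 6.57 to 25.2 ± 4.54 CPM. Genes at lower levels were the homeodomain-only gene Hopx (-1.26, log2), the TGF-beta family ligand Gdf1 (-1.24), the apolipoprotein L gene Apol6 (-1.23) and the gamma-glutamyltransferase Ggt1 (-1.19). Gdf1 shares a transcript with Cers1, so the reads of these 2 genes may not be separable. The proteases Prss50 (-0.98) and Napsa (-0.97), the zinc-finger gene Zmat4 (-0.95) and the corepressor Ripply1 (-0.95) complete the named decreases. The call of Ripply1 was lost without EGFPKD replicate 1 in a fit with no block.

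Genes with the largest differences in TPM, the authors' length-adjusted share of transcripts, are abundant messages and were of other kinds. The translation elongation factor Eef1a1 stood at 10723, 11139 and 11083 CPM in EGFPKD and 12599, 13195 and 12989 CPM in Ddx54KD, a log2 change of 0.24 ± 0.04 (edgeR adjusted p 0.000610). Eef2, which moves the ribosome along the message, rose by 0.22 (log2). Ass1, argininosuccinate synthase of the urea and arginine pathway, rose by 0.63. Among abundant messages that fell were the chaperone Hspa8 (7462, 7465 and 7508 CPM in EGFPKD, 6586, 6464 and 5978 CPM in Ddx54KD, log2 -0.24) and the histone variant H2afz (918, 848 and 896 CPM and 732, 673 and 582 CPM, log2 -0.42). In Eef1a1, Hspa8 and H2afz no knockdown library reached the control range, which was a condition for naming them. Prothymosin alpha (Ptma, -0.23), gamma actin (Actg1, -0.24), the tubulin Tuba1b (-0.27), the glycolytic enzyme Aldoa (-0.28), the corepressor Trim28 (-0.32) and the translation factor Eif5a (-0.19) also fell. Calls of Aldoa were lost without EGFPKD replicate 1 or 2 or without Ddx54KD replicate 2 or 3, and that of Ptma without EGFPKD replicate 1 or Ddx54KD replicate 3. Calls of Rps15, Rps10 and Rpl23, ribosomal protein genes also among the largest TPM increases, are described with their list. Many of these genes have processed pseudogenes, so that reads can be split between copies.

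Lists of related genes were described by how many members were called, beside the 13.1% of all tested genes called higher and 11.2% called lower. In the highest of 5 equal classes by mean TPM these shares were 8.37% and 24.1%. Lists of abundant messages are to be read beside those shares too. All of these shares are without the block. Counts with the block are to be read beside the 20% of all tested genes called higher and 18.8% called lower with it. Shares with the block were not computed for the TPM classes. The median log2 change of all tested genes was 0.01. Members named from a list are mostly those with the smallest p in it. This favours groups that lie apart, so separation of named members is no added support. Counts with 1 library left out come from fits without the block and are given where a count above 5 moved by over 1.5 times. No library was left out of a fit with the block, so the part of the pairing in these moves was not tested. Counts of 5 or fewer often moved as much. Over all tested genes the calls also fell, from 1878 higher and 1605 lower to 1281 and 951 without Ddx54KD replicate 3. Without the libraries numbered 2 they were 1220 and 941. Where no member was called in a direction (replication, proteasome and 2-cell-like genes among those below), none had an unadjusted p under 0.05 that way and none was called by DESeq2, except that 1 nuclear transport gene was higher and 1 snoRNA host gene lower at an unadjusted p under 0.05. With the block, 2 nuclear transport genes and 1 snoRNA host gene were called higher there, and 3 snoRNA host genes, 2 BMP pathway genes and 1 gene of the 2-cell-like list lower.

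**Figure D2:**
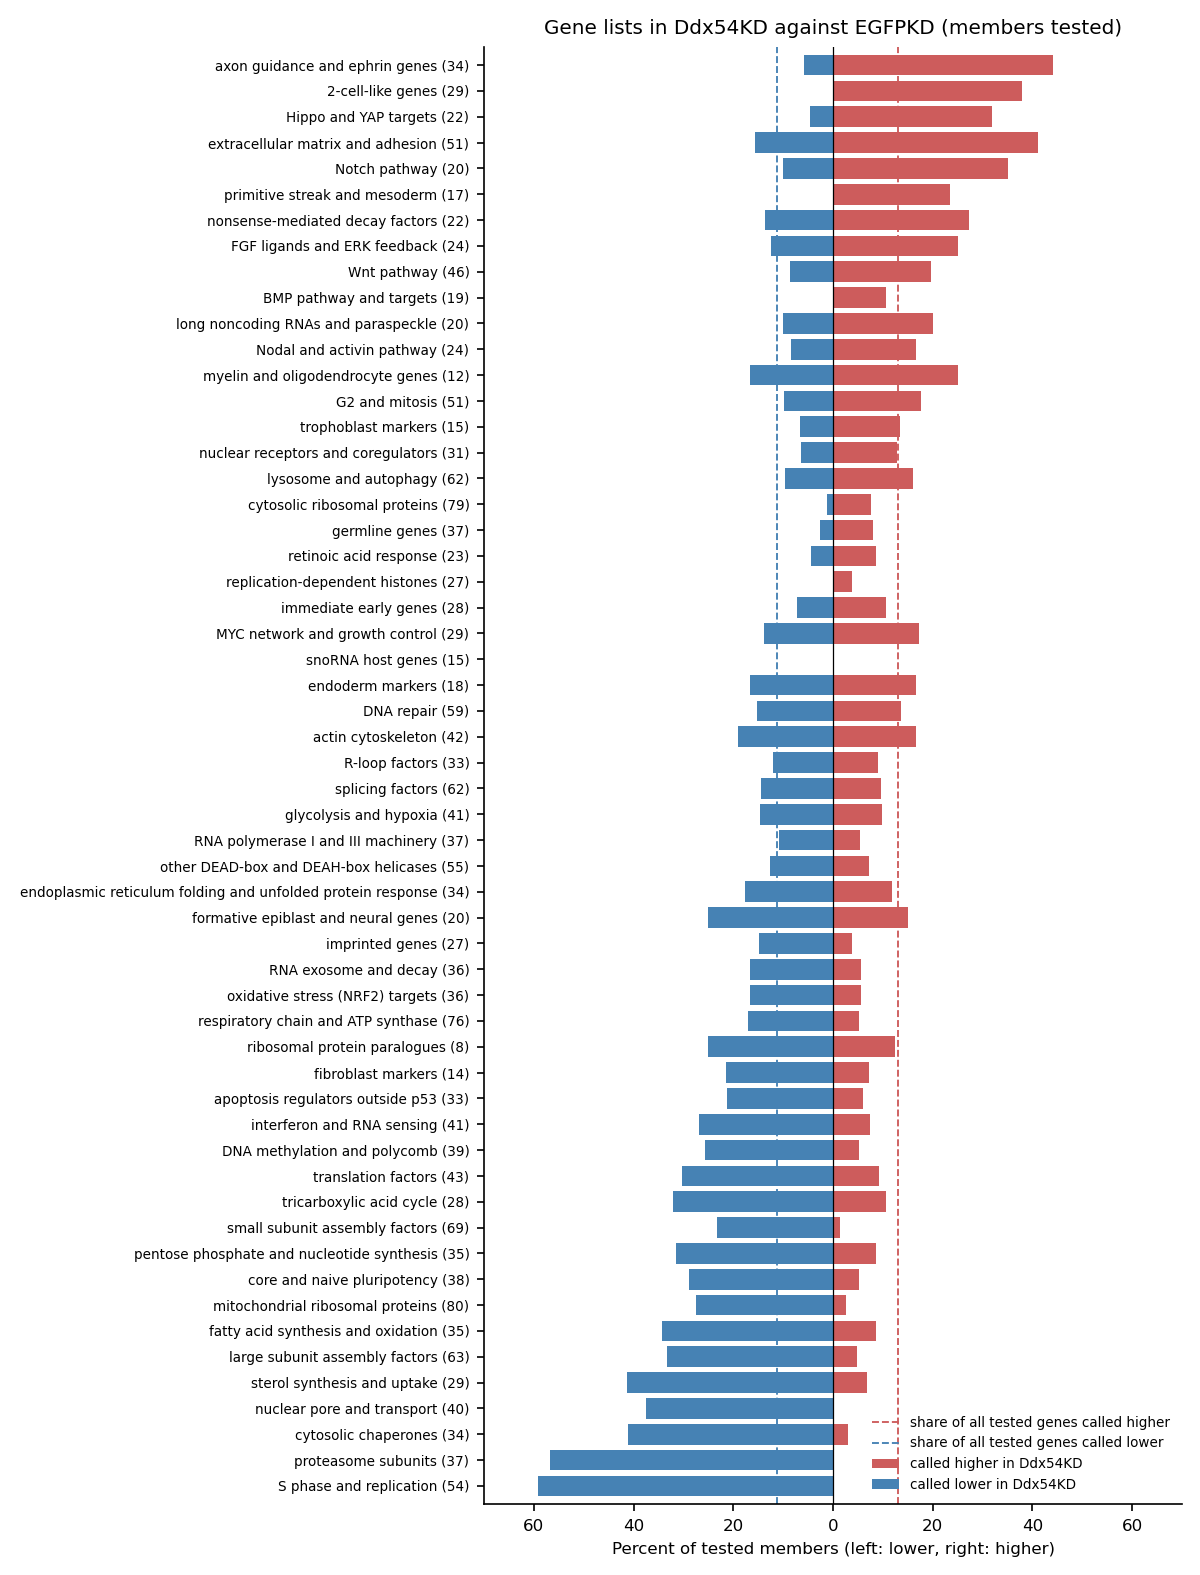
Percent of the tested members of 56 gene lists called higher (right, red) or lower (left, blue) in Ddx54KD against EGFPKD. Numbers in brackets are members tested and dashed lines are the shares among all tested genes. Lists of replication, the proteasome, chaperones and nuclear transport lie at the bottom, with many lower members, and axon guidance, 2-cell-like, Hippo and extracellular matrix genes at the top.

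Ribosome assembly factors fell more often than they rose, by small amounts. Of 63 factors of the large subunit 21 (33.3%) were called lower and 3 higher (31 and 5 with the block), with a median log2 change of -0.10. Of 69 factors of the small subunit 16 (23.2%) were called lower and 1 higher, with a median of -0.11. The lower share did not exceed the 24.1% of the class of highest TPM. With the block 36 small-subunit factors were called lower and 2 higher. Aatf, a factor of early small-subunit assembly, stood at 87.3, 85.97 and 90.9 CPM in EGFPKD and 68.7, 68.9 and 68.2 CPM in Ddx54KD, with a log2 change of -0.36 ± 0.05 (edgeR adjusted p 7.80e-05). The 3 knockdown values lay within 1 CPM of each other and all below the controls. Nop10, a core protein of the H/ACA snoRNPs that guide pseudouridylation, fell by 0.42 ± 0.06 (log2, SE) and Bms1, a GTPase of the small-subunit processome, (-0.24 ± 0.04). Utp20, which also acts in that processome, was the member called higher, from 401, 388 and 391 CPM to 496, 479 and 479.8 CPM (0.30 ± 0.05). Without Ddx54KD replicate 3 the lower calls were 13 for the large subunit and 7 for the small subunit. For the small subunit they were also 10 without EGFPKD replicate 1 or 2, and 25 without Ddx54KD replicate 1.

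Among large-subunit factors the nucleolar protein Rrp1 fell from 204 ± 6.13 to 169.6 ± 2.63 CPM (SD, n = 3) and the SUMO protease Senp3 from 460.3 ± 25.3 to 376 ± 19.4 CPM. The groups did not overlap for either. Other DEAD-box and DEAH-box helicases were called in 4 of 55 cases higher (7.27%) and 7 lower (12.7%), near or below the shares of all tested genes (7 and 15 with the block). Ddx17 stood at 373, 335 and 342 CPM in EGFPKD and 504, 472 and 464 CPM in Ddx54KD (0.46 ± 0.06, adjusted p 2.89e-05), and the spliceosomal helicase Dhx16 rose by 0.48 ± 0.06. Ddx27, the target of another knockdown of the series, was lower, at 205, 202 and 199.9 CPM against 177, 178 and 163 CPM (-0.23 ± 0.05, edgeR adjusted p 0.00624). Ddx24 and Ddx10 had log2 changes of -0.21 and -0.19 that were not called (adjusted p 0.0657 and 0.174, and 0.00833 and 0.0742 with the block). Lower calls among helicases were 3 without Ddx54KD replicate 3 and 4 without Ddx54KD replicate 2 or EGFPKD replicate 1 or 3.

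Of 37 genes of the RNA polymerase I and III machinery 2 (5.41%) rose and 4 (10.8%) fell, no more than among all tested genes. Gtf3c1, the largest subunit of the polymerase III factor TFIIIC, rose from 172, 179.9 and 183 CPM to 250.1, 268 and 287 CPM (0.59 ± 0.08, edgeR adjusted p 4.63e-05), and the polymerase I factor Rrn3 by 0.19 ± 0.05. Polr3g, a polymerase III subunit of stem cells, fell from 128 ± 4.43 to 102 ± 5.80 CPM, and the polymerase I subunit Polr1b (-0.22 ± 0.07). Among these, the groups were farthest apart for Gtf3c1. The lower count was 1 or 2 without EGFPKD replicate 1 or 3 or without Ddx54KD replicate 2 or 3, and Polr1b lost its call in these fits. Rrn3 lost it without EGFPKD replicate 2.

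The messages of the ribosomal proteins themselves gave few calls without the block. Of 79 cytosolic ribosomal protein genes 6 (7.59%) were called higher and 1, Rpl3, lower, and with the block 35 were higher and 1 lower. Their summed level was 201218, 210551 and 204572 TPM in the EGFPKD libraries and 213837, 230318 and 221028 TPM in the Ddx54KD libraries. Every knockdown sum was above every control sum, and replicate 2 was the highest in both groups. Members lay between -0.20 and 0.24 on the log2 scale, with a median of 0.09. Rpl23a rose from 1396, 1455 and 1490 CPM to 1567, 1757 and 1722 CPM (0.22 ± 0.05), and every knockdown value was above every control value. Without the block the higher calls numbered 1 without Ddx54KD replicate 2 and 2 without EGFPKD replicate 1. In both of these fits the calls of Rps15, Rps10 and Rpl23 were lost. Those of Rps10 and Rpl23 were also lost without EGFPKD replicate 3 and EGFPKD replicate 2, respectively, and that of Rpl23 without Ddx54KD replicate 3. Of 8 ribosomal protein paralogues Rps27l, also known as a p53 target, rose from 73.6 ± 3.38 to 100.4 ± 7.49 CPM, and Rpl22l1 and Rpl36al fell.

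Of 43 translation factors 4 rose and 13 fell (22 with the block). The summed TPM of the list was higher in Ddx54KD all the same, at 40664 ± 341 against 38376 ± 60.9 (SD, n = 3), as Eef1a1 and Eef2 are among its most abundant members. Eif3d, a subunit of initiation factor 3, fell from 418, 442 and 427 CPM to 322, 338 and 307 CPM (-0.41 ± 0.05, edgeR adjusted p 2.21e-05), and the start codon selection factor Eif1ax also fell (-0.29 ± 0.05). For both, which were picked for small p, the groups were well separated. Without Ddx54KD replicate 3 the lower calls numbered 7.

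Apart from the ATF4 targets, replication genes were the list with the largest share of members called lower. Of 54 genes of S phase and DNA replication 32 (59.3%) fell and 0 rose, with a median log2 change of -0.17. With the block 40 fell and 0 rose. Their summed level was 8117, 7918 and 8036 TPM in EGFPKD and 7142, 6858 and 6697 TPM in Ddx54KD. The knockdown sums were all below the control sums, and replicate 3 was the lowest. The thymidine kinase Tk1 fell from 76.8, 75.5 and 81.5 CPM to 53.5, 54.8 and 48.9 CPM, a log2 change of -0.57 ± 0.06 (edgeR adjusted p 4.48e-06). Uhrf1, which recruits the maintenance DNA methyltransferase to newly copied DNA, fell from 587, 573 and 584 CPM to 438, 421 and 396 CPM (-0.48 ± 0.05). For Uhrf1 the control libraries lay close together and every knockdown library was far below them. Pcna, the sliding clamp of DNA polymerases, stood at 485, 470.3 and 475 CPM and 372, 359 and 316 CPM (-0.45 ± 0.06, adjusted p 0.000110).

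The origin licensing factor Cdt1 fell by 0.37 ± 0.05 (log2, SE), Mcm10 (-0.34 ± 0.05) and the helicase subunit Mcm6 (-0.31 ± 0.05). Cyclin E1 (Ccne1), which drives entry into S phase, fell from 371, 353 and 339.95 CPM to 288, 259 and 221 CPM (-0.47 ± 0.10), and the transcription factor E2f1 (-0.25 ± 0.08). Mcm3 was not called, at -0.13 (adjusted p 0.0594). Without Ddx54KD replicate 3, 19 members were called lower, and without the 5 libraries numbered 2, 21. Genes of G2 and mitosis were called in both directions: of 51 members 9 (17.6%) rose and 5 (9.80%) fell (17 and 6 with the block). The kinesin Kif18b rose from 93.4, 101 and 101 CPM to 169, 176 and 191 CPM (0.86 ± 0.10, edgeR adjusted p 1.72e-05), while the phosphatase Cdc25a fell from 156 ± 3.54 to 125 ± 3.91 CPM. The centromeric histone Cenpa rose by 0.28 ± 0.05 and the kinesin Kif4 by 0.32 ± 0.05. Higher calls among mitotic genes were 4 without Ddx54KD replicate 2 and 5 without Ddx54KD replicate 3 or EGFPKD replicate 1 or 3. Of 27 tested replication-dependent histone genes, whose messages mostly lack poly(A), 1 was higher.

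Promoters of replication genes often carry sites for E2F factors, the activators of the G1 to S transition. The 250 bases before each start site were searched on both strands for the letters TTTGGCGC, TTTCGCGC and TTTCCCGC, which can overlap each other. They occurred in 504 of 32851 promoter windows (1.53%) and in 11 of 51 windows (21.6%) of the replication genes, of which 44 of 54 had a window. Windows of members called lower held them in 6 of 31 cases (19.4%), and windows of members not called in 5 of 20 (25%). Stretches from 5 members called lower follow, 5′ to 3′ on the strand of the gene (RefSeq, GRCm38.p6), with the matched letters in capitals. They were chosen because Mcm6 holds 3 matches, 2 of which overlap, and the others 1 each, at different distances from the start site. A match is a description of the letters and not of binding.
Mcm6, chr1:128359720-128359840, reverse strand: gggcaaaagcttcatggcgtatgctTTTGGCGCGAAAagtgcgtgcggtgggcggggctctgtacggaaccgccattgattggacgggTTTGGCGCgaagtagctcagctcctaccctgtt
Cdc6, chr11:98907988-98908045, forward strand: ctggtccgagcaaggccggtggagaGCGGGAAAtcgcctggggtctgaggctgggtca
Uhrf1, chr17:56304103-56304160, forward strand: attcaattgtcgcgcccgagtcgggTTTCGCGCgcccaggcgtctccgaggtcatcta
Rfc3, chr5:151651209-151651243, reverse strand: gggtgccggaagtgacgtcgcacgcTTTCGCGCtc
Dtl, chr1:191575545-191575577, reverse strand: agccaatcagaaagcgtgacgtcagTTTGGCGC
The log2 changes of these genes in Ddx54KD were -0.31 ± 0.05 for Mcm6, -0.41 ± 0.08 for the loading factor Cdc6, -0.48 ± 0.05 for Uhrf1, -0.24 ± 0.07 for the clamp loader subunit Rfc3 and -0.12 ± 0.04 for the ubiquitin ligase receptor Dtl (SE). The gene with 3 matches did not have the largest change.

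Proteasome subunits form the main protease of the cytosol and nucleus. Of 37 tested subunits 21 (56.8%) were called lower, 0 higher and 16 not called, with a median log2 change of -0.16. The summed level was 10689, 10682 and 10924 TPM in EGFPKD and 9955, 9718 and 9566 TPM in Ddx54KD. All 3 knockdown sums lay below the lowest control sum. Psmd3, of the regulatory particle, fell from 376, 388 and 393 CPM to 300.4, 295 and 278 CPM (-0.41 ± 0.05, edgeR adjusted p 4.38e-05), and decreases were also called for Psmd1 (-0.29 ± 0.05), the deubiquitinase Psmd14 (-0.29 ± 0.06) and the core subunit Psma7 (-0.25 ± 0.05). The calls came from both the core and the regulatory particle. Only 10 subunits were called without Ddx54KD replicate 3, and 12 without the libraries numbered 2.

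Of 34 cytosolic chaperones 14 (41.2%) fell and 1, the small heat shock protein Cryab, rose (22 and 2 with the block). The HSP90 cochaperone Fkbp4 went from 716, 750.3 and 729 CPM to 595, 616 and 552 CPM (-0.32 ± 0.05, edgeR adjusted p 0.000246), and Hspa4, a nucleotide exchange factor of HSP70, from 1611, 1506 and 1634 CPM to 1339, 1186 and 1232 CPM (-0.34 ± 0.06). The cochaperones Ahsa1 and Stip1 had log2 changes of -0.29 ± 0.05 and -0.23 ± 0.05, and 4 subunits of the chaperonin TRiC (Cct7, Cct5, Cct6a and Tcp1) were among the lower calls. The groups did not overlap for the named members, which were picked for small p. The lower chaperone calls numbered 8 without Ddx54KD replicate 3. Of 34 endoplasmic reticulum folding genes 4 (11.8%) rose and 6 (17.6%) fell, and 3 fell without EGFPKD replicate 3 or Ddx54KD replicate 2 or 3. Herpud1, of the degradation of misfolded proteins there and also an ATF4 target, fell from 12.97, 18.9 and 16.8 CPM to 8.53, 9.50 and 8.68 CPM (-0.87 ± 0.12), and Derl3, of the same process, rose by 0.63 ± 0.13.

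Nuclear pore and transport genes had 15 of 40 members (37.5%) called lower and 0 higher, and 21 and 2 with the block. Rcc1, which charges the transport GTPase Ran, fell from 178, 171 and 171 CPM to 129, 124 and 114 CPM, a log2 change of -0.50 ± 0.06 (edgeR adjusted p 1.33e-05). The transfer RNA exporter Xpot fell from 311, 315 and 319 CPM to 260.4, 248 and 248 CPM (-0.32 ± 0.04), and the import adaptors Kpna1 and Kpna3 had log2 changes of -0.35 ± 0.05 and -0.33 ± 0.06. In the first 2 genes, picked like the others for small p, the highest knockdown value was far below the lowest control value. The lower calls numbered 7 without EGFPKD replicate 1 or Ddx54KD replicate 2, 6 without EGFPKD replicate 3 and 5 without Ddx54KD replicate 3.

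Mitochondrial messages fell more often than they rose, by small steps. Of 80 mitochondrial ribosomal protein genes 22 (27.5%) fell, against 24.1% in the class of highest TPM, and 2 rose (40 and 5 with the block). Their summed TPM was 8459, 8406 and 8530 in EGFPKD and 8080, 8032 and 7779 in Ddx54KD. The sums did not overlap. Mrpl12 fell from 132, 134 and 149 CPM to 107, 111 and 102 CPM (-0.37 ± 0.05, edgeR adjusted p 0.000116), and Mrps12, Mrpl36 and Mrpl20 had log2 changes of -0.44 ± 0.10, -0.39 ± 0.09 and -0.25 ± 0.06. Lower calls numbered 5 without Ddx54KD replicate 3, 11 without EGFPKD replicate 2 and 14 without EGFPKD replicate 3. Of 76 nuclear-encoded respiratory chain and ATP synthase genes 13 (17.1%) fell, a smaller share than in that class, and 4 rose (22 and 8 with the block). The complex III subunit Uqcrq fell from 137 ± 8.43 to 106 ± 4.37 CPM and the ATP synthase gene Atp5f1 from 205 ± 1.92 to 174 ± 5.12 CPM (SD, n = 3). For this list the lower calls were 8 without Ddx54KD replicate 3.

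In the tricarboxylic acid cycle and its feeder enzymes 9 of 28 genes (32.1%) fell and 3 rose (14 and 3 with the block). Idh3a, a subunit of isocitrate dehydrogenase, fell from 138, 137 and 130.4 CPM to 110.2, 106 and 99.8 CPM (-0.36 ± 0.05, edgeR adjusted p 8.58e-05), the citrate synthase Cs (-0.20 ± 0.04) and the aminotransferase Got2 (-0.26 ± 0.05). Pyruvate carboxylase (Pcx), which refills the cycle, went the other way, from 42.03, 46.05 and 47.8 CPM to 72.5, 78.7 and 83.99 CPM (0.79 ± 0.08, adjusted p 3.27e-06). Its lowest knockdown value lay far above its highest control value. Of 35 genes of the pentose phosphate pathway and nucleotide synthesis 11 fell and 3 rose (19 and 3 with the block). Transketolase (Tkt) fell from 676, 694 and 678 CPM to 500.4, 514 and 482 CPM (-0.45 ± 0.04, edgeR adjusted p 3.92e-06) and Pgd, the second dehydrogenase of the pathway, from 215, 207 and 202 CPM to 157, 149 and 142 CPM (-0.48 ± 0.05). The purine enzyme Adsl fell by 0.35 ± 0.06, and Cad, which starts pyrimidine synthesis, rose by 0.30 ± 0.05. Each of these 4 genes, picked for small p, separated the groups.

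Lipid genes were called in both directions. Of 29 sterol genes 12 (41.4%) were lower, 2 higher and 15 not called, with a median log2 change of -0.22. The sterol isomerase Ebp fell from 35.2, 32.8 and 32.2 CPM to 23.3, 25.5 and 22.6 CPM (-0.49 ± 0.08, edgeR adjusted p 0.000318), the demethylase Cyp51 fell from 66.1, 62.8 and 56.6 CPM to 44.6, 42.3 and 39.9 CPM (-0.55 ± 0.11) and the transcription factor of the pathway, Srebf2, also fell (-0.26 ± 0.05). Scap, which carries SREBP proteins to the Golgi, rose by 0.50 ± 0.08. Of 35 fatty acid genes 12 fell, 3 rose and 20 were not called (14 lower and 8 higher with the block). The desaturase Scd1 fell from 194, 167 and 194 CPM to 124, 113 and 129 CPM (-0.60 ± 0.14), the oxidation enzyme Acads (-0.34 ± 0.06) and the elongase Elovl5 (-0.25 ± 0.05). Cpt1c, a neuronal member of the carnitine palmitoyltransferases, rose from 24.5, 26.4 and 22.01 CPM to 58.1, 68.8 and 76.6 CPM (1.48 ± 0.12, edgeR adjusted p 5.60e-07), the largest change of the list. Lower calls were 7 for fatty acid genes without EGFPKD replicate 1 or 3 or Ddx54KD replicate 2. In glycolysis and hypoxia genes 6 of 41 (14.6%) fell and 4 (9.76%) rose, and the lower calls numbered 2 or 3 without EGFPKD replicate 1 or 2 or Ddx54KD replicate 2 or 3. The lactate transporter Slc16a1 fell by 0.62 ± 0.10, and the glucose transporter Slc2a1 rose by 0.30 ± 0.05.

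In axon guidance and ephrin genes, which encode guidance cues and their receptors, 15 of 34 (44.1%) rose and 2 fell, with a median log2 change of 0.31 (21 and 3 with the block). Their summed level was 462, 450.1 and 468 TPM in EGFPKD and 553, 555 and 625 TPM in Ddx54KD. All knockdown sums were above all control sums, and replicate 3 was the highest. The ephrin receptor Epha2 rose from 114, 121 and 131 CPM to 206, 201 and 209.8 CPM (0.76 ± 0.08, edgeR adjusted p 7.75e-06), and the semaphorin receptor Plxnb2 from 73.5, 72.6 and 75.2 CPM to 99.7, 112 and 112 CPM (0.55 ± 0.06). Plxna1 rose by 0.61 ± 0.08 and the ligand Efnb1 by 0.91 ± 0.15, and netrin 1 (Ntn1) was 1 of the 2 members called lower.

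Of 51 tested genes of the extracellular matrix and of adhesion 21 (41.2%) rose and 8 fell (25 and 13 with the block). Beside Serpine2, the proteoglycan versican (Vcan) rose from 86.5, 90.3 and 96.2 CPM to 141, 182 and 208 CPM (0.96 ± 0.13, edgeR adjusted p 5.15e-05) and the surface protein Cd109 from 7.93, 6.72 and 8.68 CPM to 26.7, 28.6 and 39.1 CPM (2.02 ± 0.29). Replicate 3 was the highest in Ddx54KD for both. Integrins and laminins were split: Itgb5, Itgav, Itga6 and Itgb4 rose while Itgb1, Itga5 and Itga1 fell, and Lama5 and Lamb3 rose while Lama1 and Lamc1 fell. The laminin chain Lamc1 went from 695, 693 and 695 CPM to 565, 512 and 491 CPM (-0.41 ± 0.05, adjusted p 5.26e-05), nearly constant in the controls and lower in every knockdown library. Fibroblast markers had 1 of 14 tested members higher (Mmp2, 0.72 ± 0.17) and 3 lower (Fbln1, Thy1 and Vim), and 3 and 3 with the block. Thy1 lost its call without EGFPKD replicate 1 or Ddx54KD replicate 2 or 3, and Vim without EGFPKD replicate 2 or 3 or Ddx54KD replicate 1 or 3. Their summed level was 701, 677 and 711 TPM in EGFPKD and 649, 634 and 683 TPM in Ddx54KD. The fibroblast collagens Col1a2 and Col3a1 did not pass the filter on low counts. Lower calls in the matrix list numbered 5 without Ddx54KD replicate 2 or 3.

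Among Notch pathway genes 7 of 20 (35.0%) rose and 2 fell. The receptor Notch3 rose from 54.5, 55.8 and 59.2 CPM to 128, 125 and 144 CPM (1.23 ± 0.11, edgeR adjusted p 1.20e-06), the ligand Dll1 from 4.68, 4.63 and 5.89 CPM to 15.6, 15.3 and 18.8 CPM (1.71 ± 0.27) and the ligand Jag1 from 37.6 ± 3.57 to 60.4 ± 5.995 CPM. None of these 3 genes overlapped between the groups. Hey2, a target gene, was also called higher, as were Notch1, Lfng and Jag2. The target gene Hes1 was not called (-0.01, adjusted p 0.939), and Hes5 and Heyl did not pass the filter on low counts. Rbpj, the transcription factor of the pathway, fell. Without Ddx54KD replicate 3, 4 members were called higher.

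Of 22 Hippo pathway genes and YAP targets 7 (31.8%) rose and 1 fell (9 and 3 with the block). After Ptpn14 the clearest was Amotl1, a scaffold that binds YAP, at 23.1, 26.5 and 23.99 CPM and 41.8, 52.7 and 51.6 CPM (0.99 ± 0.11, edgeR adjusted p 1.57e-05). Crim1 rose by 0.81 ± 0.16 and the YAP partner Tead1 by 0.35 ± 0.07, and Tead2 fell. Yap1 had a log2 change of -0.02 (adjusted p 0.831). The YAP targets Cyr61 and Ctgf stood at 7.68, 17.7 and 12.1 and 25.2, 40.9 and 29.3 CPM in EGFPKD and at 17.5, 38.8 and 25.8 and 40.1, 66.5 and 42.3 CPM in Ddx54KD, and were not called (adjusted p 0.0533 and 0.113). With the replicate number as a block their adjusted p were 3.96e-07 and 1.22e-05.

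Wnt pathway genes had 9 of 46 members higher (19.6%) and 4 lower. The ligands Wnt5a, Wnt6 and Wnt3 rose from low levels, Wnt5a from 1.21, 0.896 and 1.51 CPM to 5.05, 4.48 and 6.02 CPM (2.10 ± 0.24, edgeR adjusted p 1.69e-05) and Wnt6 from 0.694, 0.448 and 0.589 CPM to 2.27, 2.17 and 2.26 CPM (1.94 ± 0.25). Wnt3 stood at 0.219, 0.373 and 0.184 CPM and 0.733, 1.73 and 1.90 CPM. Notum, a secreted enzyme that inactivates Wnt ligands, fell from 72.7, 65.4 and 77.2 CPM to 45.9, 41.3 and 45.95 CPM (-0.69 ± 0.10), as did the secreted Wnt antagonists Sfrp1 and Sfrp2. Without Ddx54KD replicate 2 the counts were 5 higher and 2 lower, and the lower count was also 2 without EGFPKD replicate 3.

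In the FGF list 6 of 24 members rose and 3 fell (7 and 6 with the block). Beside Fgf17, the ERK inhibitor Spred1 fell from 108 ± 1.05 to 82.9 ± 2.96 CPM, while the receptor Fgfr2 rose from 22.6 ± 0.859 to 32.3 ± 5.15 CPM and Phlda1 by 1.15 ± 0.18. Higher calls numbered 3 without EGFPKD replicate 1. In the Nodal and activin list 4 of 24 (16.7%) rose and 2 (8.33%) fell (9 and 2 with the block). Nodal, the ligand, rose from 73.4, 64.1 and 66.7 CPM to 118, 104 and 117 CPM (0.73 ± 0.12, edgeR adjusted p 0.000372) with no overlap, the corepressor Ski rose by 0.25 ± 0.04, and the fellow ligands Gdf1 and Inhbb fell, as given above. Of 28 immediate early genes 3 (10.7%) rose and 2 (7.14%) fell, and with the block 14 and 4. Fosl1, an AP-1 subunit, rose from 0.183, 0.448 and 0.368 CPM to 1.72, 1.84 and 2.37 CPM (2.56 ± 0.47), and Myc fell from 104 ± 9.53 to 83.98 ± 6.54 CPM.

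Pluripotency genes fell more often than they rose, with the core factors only slightly moved. Of 38 genes 11 (28.9%) fell and 2 (5.26%) rose (18 and 7 with the block). In the class of highest TPM 24.1% of all genes fell and 8.37% rose, and the part of abundance was not tested. Zfp42, a marker of naive cells, fell from 773, 730.5 and 782 CPM to 633, 603 and 615 CPM (-0.30 ± 0.05, edgeR adjusted p 0.000213), the polycomb cofactor Jarid2 from 809.6, 791 and 837 CPM to 669.5, 644 and 670.1 CPM (-0.30 ± 0.04) and Tcl1 from 87.98 ± 4.68 to 63.3 ± 2.93 CPM. These groups did not overlap. Pou5f1 fell by 0.16 ± 0.05 (adjusted p 0.0337), while Sox2 rose by 0.23 ± 0.05 (adjusted p 0.00441). Nanog was at -0.19 with an adjusted p of 0.0730, and 0.00581 with the block. Esrrb and Klf4 were not called (-0.03 and 0.17, adjusted p 0.804 and 0.448).

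Lineage marker lists differed in direction, and several of their called members were at low levels. Of 20 tested formative and neural genes 3 rose and 5 fell (4 and 8 with the block): Otx2, an early epiblast factor, rose from 28.4, 20.1 and 25.1 CPM to 45.5, 31.3 and 43.4 CPM (0.71 ± 0.18, edgeR adjusted p 0.00935), while Zic2 fell from 63.3 ± 5.94 to 43.3 ± 5.23 CPM. Otx2 was lowest in replicate 2 of both groups. Of 17 tested mesoderm genes 4 rose and 0 fell, among them Mesp2 (1.08 ± 0.220 to 2.59 ± 0.617 CPM) and Twist1 (1.40 ± 0.0531 to 2.53 ± 0.376 CPM). Twist1 lost its call without Ddx54KD replicate 2. Endoderm markers had 3 of 18 higher and 3 lower, with Hnf4a at 0.652 ± 0.0598 and 1.98 ± 0.280 CPM and the laminin Lama1 at 142 ± 6.96 and 108 ± 6.24 CPM. Trophoblast markers had 2 of 15 higher and 1 lower (4 and 3 with the block). Shares higher and lower were 15% and 25% for formative and neural genes and 23.5% and 0% for mesoderm genes. They were 16.7% and 16.7% for endoderm and 13.3% and 6.67% for trophoblast markers. The background was 13.1% higher and 11.2% lower.

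Of 29 tested 2-cell-like genes, which mark a rare state of stem cells that resembles the 2-cell embryo, 11 (37.9%) rose and 0 fell, with a median log2 change of 0.55. Zfp750 rose from 10.8, 13.03 and 13.1 CPM to 36.9, 42.5 and 54.4 CPM (1.86 ± 0.20, edgeR adjusted p 7.28e-06). Zscan4c, of the Zscan4 cluster, stood at 11.3, 10.6 and 13.3 CPM in EGFPKD and 19.4, 15.8 and 19.8 CPM in Ddx54KD (0.65 ± 0.17, adjusted p 0.0126), and the transcription factor Dux at 0.256, 0.149 and 0.442 and 0.513, 0.650 and 0.875 CPM. The summed level of the list was 321, 289.8 and 332 TPM in EGFPKD and 404, 361 and 392 TPM in Ddx54KD, without overlap. Zscan4, Tcstv3 and Gm8300 belong to families of near-identical copies, so the share of reads given to each member is uncertain. Higher calls numbered 7 without EGFPKD replicate 1 and 6 without EGFPKD replicate 2, and 4 without the libraries numbered 2. Of 37 germline genes 3 (8.11%) rose and 1 (2.70%) fell (9 and 1 with the block), and the meiotic gene Hormad1 rose from 11.5 ± 0.840 to 26.9 ± 3.77 CPM.

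Genes that act on RNA gave mixed directions. Of 33 R-loop factors 3 (9.09%) rose and 4 (12.1%) fell (9 and 8 with the block), near the shares of all tested genes without the block. Thoc6, of the export complex THO, rose from 51.7, 56.1 and 54.5 CPM to 81.2, 88.5 and 79.2 CPM (0.62 ± 0.07, edgeR adjusted p 2.02e-05), the topoisomerase Top3b from 97.3, 110.4 and 103 CPM to 141, 167 and 168 CPM (0.62 ± 0.09) and the helicase Aqr by 0.19 ± 0.05, and Brca1 fell by 0.25 ± 0.06. Aqr lost its call without EGFPKD replicate 2 or Ddx54KD replicate 1, and Brca1 without EGFPKD replicate 3. Of 22 nonsense-mediated decay factors 6 rose and 3 fell, and 3 rose without EGFPKD replicate 3 or Ddx54KD replicate 2 or 3. Upf2 rose from 87.7, 86.05 and 79.5 CPM to 120.1, 111 and 123 CPM (0.48 ± 0.07) and Eif4a3 fell by 0.25 ± 0.04. Among 62 splicing factors 6 (9.68%) rose and 9 (14.5%) fell (10 and 16 with the block), near the shares of all tested genes. Lower calls there were 4 without Ddx54KD replicate 3 and 5 without EGFPKD replicate 2. Mbnl2 stood at 22.2, 21.3 and 20.5 CPM and 35.8, 36.3 and 40.4 CPM (0.81 ± 0.09) and Sf3a1 at 447 ± 13.1 and 343 ± 18.5 CPM. The RNA exosome and decay list had 2 of 36 higher (5.56%) and 6 lower (16.7%), and 4 and 12 with the block. Of 20 noncoding RNAs and paraspeckle genes 4 rose and 2 fell (5 and 5 with the block). Neat1, the RNA on which paraspeckles form, rose from 24.2, 20.02 and 19.6 CPM to 49.4, 47.2 and 57.4 CPM (1.27 ± 0.15), and the paraspeckle protein Pspc1 from 97.2, 94.5 and 106 CPM to 153, 157 and 158 CPM (0.66 ± 0.05, edgeR adjusted p 3.81e-07).

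DNA methylation and polycomb genes had 10 of 39 members lower (25.6%) and 2 higher (17 and 3 with the block), with Uhrf1, Jarid2 and Trim28 as given above and Aebp2, a subunit of polycomb complex 2, higher by 0.28 ± 0.06. Of 59 DNA repair genes 8 (13.6%) rose and 9 (15.3%) fell (14 and 17 with the block), near the shares of all tested genes. The nuclease Ercc5 rose from 22.8, 25.8 and 26.9 CPM to 46.04, 52.97 and 58.4 CPM (1.06 ± 0.12, edgeR adjusted p 1.24e-05), the methyltransferase Mgmt by 1.32 ± 0.19 and Xrcc1 by 0.53 ± 0.07, and the end-binding protein Xrcc6 fell from 83.3 ± 0.634 to 63.9 ± 0.853 CPM. Higher repair calls numbered 4 without EGFPKD replicate 2 or Ddx54KD replicate 3 and 5 without EGFPKD replicate 1, and lower calls 5 without EGFPKD replicate 3. Interferon and RNA sensing genes had 11 of 41 lower (26.8%) and 3 higher (15 and 7 with the block). The RNA sensor Ddx58 fell from 118, 108 and 126 CPM to 89.2, 73.9 and 77.6 CPM (-0.55 ± 0.10) and Oas1a from 25.5 ± 2.73 to 17.7 ± 1.39 CPM, while Isg15, Irf7 and Ifnb1 did not pass the filter on low counts. Lower calls there numbered 5 without Ddx54KD replicate 2, 6 without Ddx54KD replicate 3 or EGFPKD replicate 3 and 7 without EGFPKD replicate 1.

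Of 62 lysosome and autophagy genes 10 (16.1%) rose and 6 (9.68%) fell (16 and 11 with the block). The protease Ctsd rose from 176 ± 11.7 to 236 ± 19.3 CPM, and the glucuronidase Gusb fell from 20.5, 21.03 and 20.2 CPM to 12.2, 11.7 and 11.4 CPM (-0.81 ± 0.10, edgeR adjusted p 1.97e-05). Higher calls were 5 without Ddx54KD replicate 3 and 4 without EGFPKD replicate 1, and lower calls 11 without Ddx24KD replicate 2, which enters the shared estimate of spread. Apoptosis regulators outside the p53 list had 2 of 33 higher and 7 lower (5 and 8 with the block), with the mitochondrial flavoprotein Aifm1 lower (-0.41 ± 0.05). Nuclear receptors had 4 of 31 higher (12.9%) and 2 lower (6.45%), no more than among all tested genes. The glucocorticoid receptor Nr3c1 rose from 17.3, 16.6 and 18.3 CPM to 33.1, 33.6 and 38.1 CPM (1.01 ± 0.12) and the vitamin D receptor Vdr from 0.402, 1.01 and 0.662 CPM to 3.08, 3.58 and 4.63 CPM (2.44 ± 0.36). Oligodendrocyte genes had 3 of 12 higher, including Mbp (1.12 ± 0.18), and 2 lower, of which the transcription factor Myrf fell from 142, 138 and 144 CPM to 98.4, 81.8 and 82.9 CPM (-0.69 ± 0.08). Of 27 imprinted genes 1 rose and 4 fell (4 and 5 with the block), and Phlda2 went from 78.8, 85.7 and 81.4 CPM to 48.9, 47.1 and 40.6 CPM (-0.85 ± 0.11, adjusted p 4.05e-05). Actin cytoskeleton genes had 7 of 42 higher and 8 lower (9 and 14 with the block). Of the actin genes, 2 to 4 were higher without any 1 library of the 6 but Ddx54KD replicate 1, and 4 were lower without Ddx54KD replicate 3. Oxidative stress targets had 2 of 36 higher and 6 lower (4 and 16 with the block), the latter 3 without Ddx54KD replicate 3 and 11 without Ddx24KD replicate 2. MYC network genes had 5 of 29 higher (17.2%) and 4 lower (13.8%), and 8 and 7 with the block.

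The share of calls in each direction differed with abundance and with length. Tested genes were put into 5 equal classes by mean TPM and by transcript length. In the class of lowest TPM 12.8% were called higher and 2.93% lower, and in the class of highest TPM, above 60.1 TPM, 8.37% were higher and 24.1% lower. By transcript length the share called higher rose from 7.08% in the class of shortest transcripts to 17.9% in that of the longest, and the share called lower fell from 12.6% to 8.90%. Precision also differs between these classes, since abundant and long messages collect more reads. Several lists with many lower calls, such as the proteasome and mitochondrial ribosomal proteins, consist mostly of abundant messages, and the part of abundance in their counts was not tested. The lower shares of small-subunit assembly factors (23.2%) and of respiratory chain genes (17.1%) did not exceed the 24.1% of the class of highest TPM. By chromosome, called genes made up 20.7% of 521 genes on the X chromosome and 26.7% of 430 on chromosome 16, the lowest and highest shares apart from the 7 genes on the Y chromosome. Of 430 long noncoding RNAs 30 (6.98%) were higher and 13 (3.02%) lower, both below the shares of all tested genes.

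**Figure D3:**
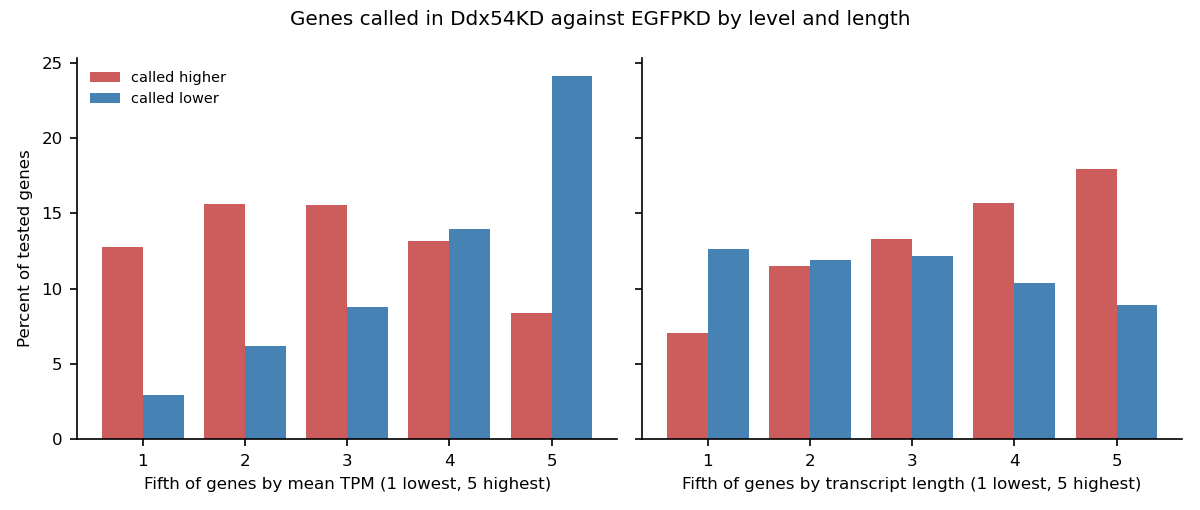
Percent of tested genes called higher (red) or lower (blue) in Ddx54KD against EGFPKD, in 5 equal classes of mean TPM (left panel) and of transcript length (right panel), from lowest to highest. The lower calls climb with abundance from 2.93% to 24.1%, and the higher calls climb with length from 7.08% to 17.9%.

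Set against the mean of the Ddx10KD, Ddx24KD and Ddx27KD libraries, a comparison with the same Ddx54KD libraries and other controls, Ddx54KD differed in few genes. There 25 of 14335 genes (0.174%) were called by edgeR, 14 higher (0.0977%) and 11 lower (0.0767%), and 1452 had an unadjusted p under 0.05. Of the 25, Ddx54 was lower, and Ddx10, Ddx24 and Ddx27 were higher, each being the target of a knockdown in that mean. Beside the 16 genes named below, Nrcam was lower and Map1a, Nol4l, Tead4, Prph and Ppp1r14d were higher. They fell short of the level or the separation required for naming. With the replicate number as a block 755 genes (5.27%) were called, 371 higher (2.59%) and 384 lower (2.68%). Without Ddx24KD replicate 2, with no block, 129 genes were called. Without Ddx54KD replicate 1, 2 or 3 the counts were 11, 6 and 7, and without Ddx10KD replicate 3 the count was 16.

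Among the genes lower in Ddx54KD than in the other knockdowns, Wnt5a had the largest difference of the named genes after Ddx54. It stood at 1.21, 0.896 and 1.51 CPM in EGFPKD, 5.05, 4.48 and 6.02 CPM in Ddx54KD, 9.64, 9.04 and 10.01 CPM in Ddx10KD, 10.4, 6.42 and 12.3 CPM in Ddx24KD and 9.93, 8.55 and 10.1 CPM in Ddx27KD. Every knockdown library was above the controls, and every Ddx54KD library was below the 9 of the other knockdowns (log2 -0.89, edgeR adjusted p 0.0361). The separation from the other knockdowns was a condition for naming Wnt5a here. Stx3, a membrane fusion protein, stood at 62.96, 63.2 and 61.7 CPM in Ddx54KD and between 71.7 and 89.0 CPM in the other knockdowns, a log2 difference of -0.36 (adjusted p 0.000610). Its call held in each of 12 fits that left out 1 library of the knockdowns, and that of Wnt5a in 3 of 12. Cpne1, a calcium-dependent membrane-binding protein, differed by -0.39, the NKG2D ligand Raet1a by -0.69, the Hedgehog receptor Ptch1 by -0.27 and the chromatin remodeller subunit Arid1a by -0.21. Others were those of the amino acid transporter Slc7a7 (-0.28), Lrig3 (-0.23) and the corepressor Tle4 (-0.18).

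Higher in Ddx54KD than in the other knockdowns were Gprc5a, an orphan receptor, at 10.2, 10.4 and 9.66 CPM against 5.50 to 7.61 CPM (0.62, edgeR adjusted p 0.000610), and the RNA-binding protein Rbm14, at 223, 242 and 241 CPM against 158 to 222.7 CPM (0.32). Both were also higher in Ddx54KD than in EGFPKD, by 0.33 ± 0.09 and 0.46 ± 0.07 (log2, SE). Vimentin (Vim) stood at 253, 274 and 274 CPM in EGFPKD, 223, 249 and 231 CPM in Ddx54KD, 167, 186 and 173 CPM in Ddx10KD, 177, 172 and 191 CPM in Ddx24KD and 180.2, 205 and 176 CPM in Ddx27KD. Every knockdown library was below every control library, and the other 3 knockdowns were below Ddx54KD (0.37 for Ddx54KD against them, adjusted p 0.00483). The galectin Lgals1 differed by 0.41, the annexin Anxa6 by 0.33 and the villin-like gene Vill by 0.43. Against EGFPKD, Lgals1, Anxa6, Raet1a, Slc7a7, Arid1a and Tle4 were not called in Ddx54KD (adjusted p 0.959, 0.504, 0.637, 0.667, 0.387 and 0.736). Of the 16 named genes 13 lost their call without at least 1 library, and Ddx54, Gprc5a and Stx3 did not.

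**Figure D4:**
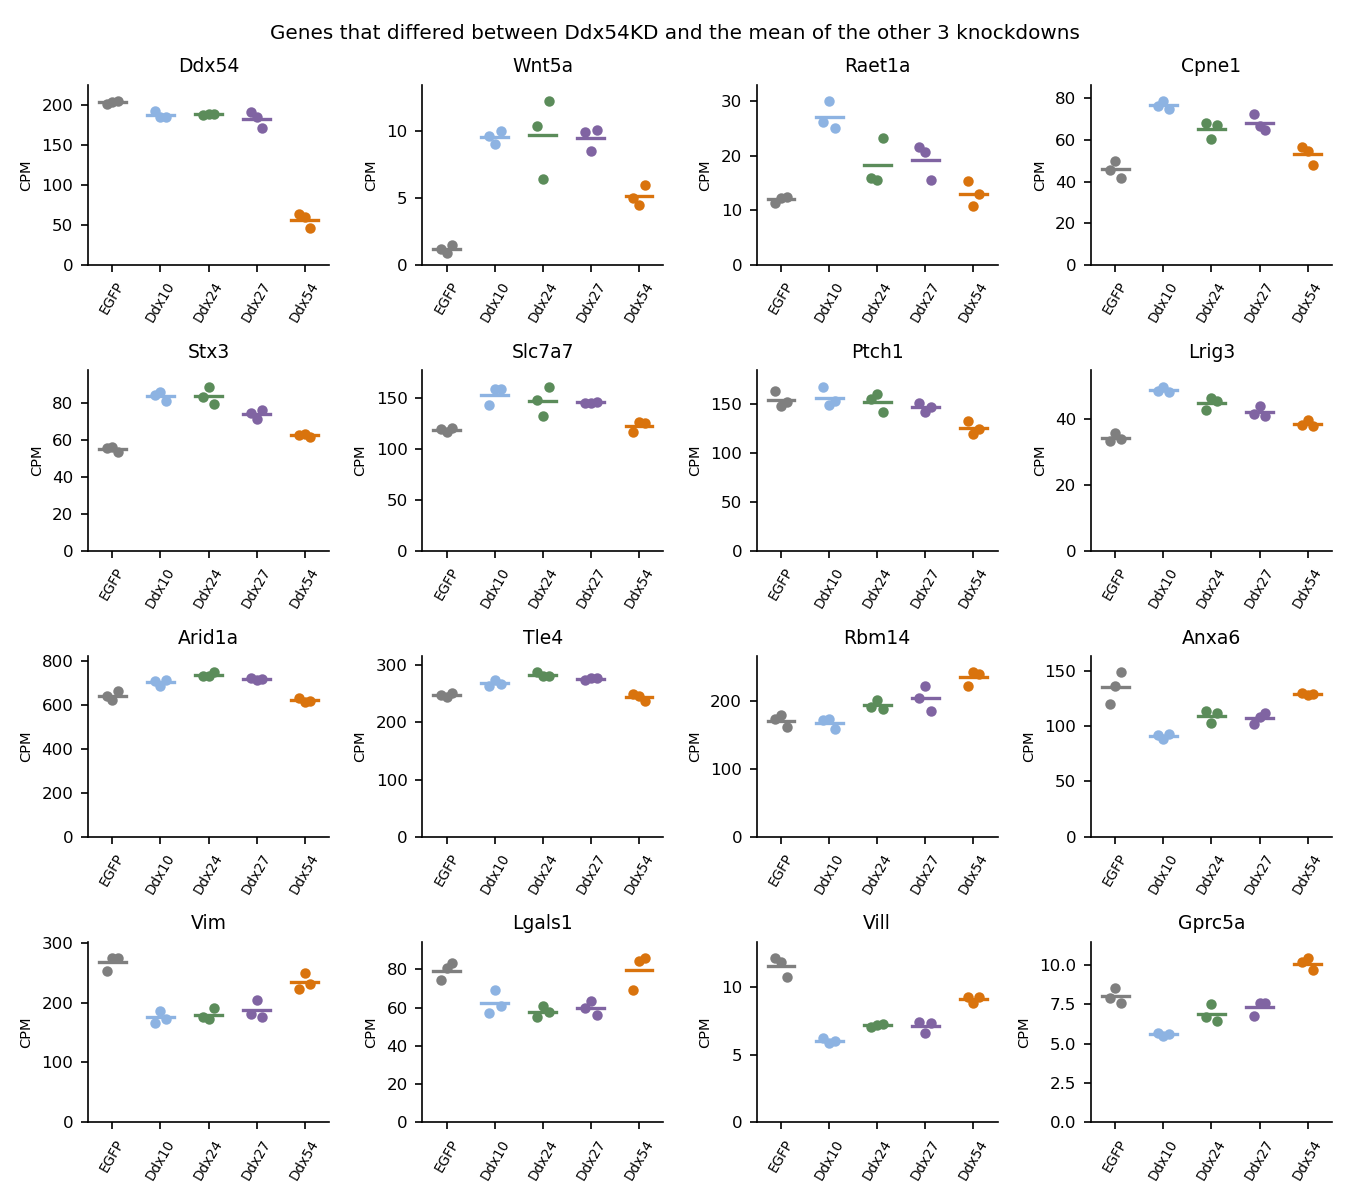
CPM of 16 genes in the 15 libraries of the series, by targeted gene (horizontal axis), with a point per library and a line at the mean of 3. Ddx54KD is in orange and the EGFPKD control in grey. Wnt5a lies between control and the other knockdowns, while Anxa6 and Lgals1 in Ddx54KD lie near the control level.

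The authors' gene values also give each gene a transcript length weighted by the estimated share of its isoforms, so that a shift between long and short isoforms moves it. The test took genes with a mean count of at least 200 whose log2 length had an SD above 0.001 over the libraries of the series. Genes with steadier lengths were left out. Of the 1919 genes tested, 14 (0.73%) differed between Ddx54KD and EGFPKD by limma, 8 longer (0.417%) and 6 shorter (0.313%). None of these overlapped between the groups. Rgs12, a regulator of G protein signalling, had weighted lengths of 4782, 4813 and 4581 bases in EGFPKD and 4121, 4081 and 4138 bases in Ddx54KD (log2 -0.20 ± 0.02, adjusted p 9.06e-05). The knockdown values were tight and all shorter. Pnkd, named for a movement disorder, went the other way, from 1166, 1147 and 1202 bases to 1504, 1606 and 1786 bases (0.47 ± 0.06, adjusted p 0.00338), longest in replicate 3. Adam23, of the ADAM family, had a longer weighted length, by 0.12 ± 0.02, and the spectrin Sptbn4 and the centrosomal Tacc2 shorter ones (-0.12 ± 0.02 and -0.09 ± 0.02).

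Changes under 0.05 on the log2 scale were called longer for Mtus1, Usp2, Tulp4, Cdv3 and Alg13 and shorter for Fbxw7, Rxrb and Csnk1e. The summed level of a gene need not move with its length: Rgs12 and Pnkd rose in level by log2 changes of 1.07 and 0.89 (edgeR adjusted p 3.62e-05 and 0.000141), and Adam23 was not called (-0.09, adjusted p 0.369). In the other knockdowns the mean weighted length was 4031 bases for Rgs12 (range 3912 to 4110) and 1673 for Pnkd (1556 to 1780), close to the Ddx54KD values. With the replicate number as a block 38 genes were called. In the 6 libraries alone 1 gene, Adam23, was called, and without Ddx54KD replicate 1, 2 or 3 the counts were 9, 7 and 9. The spread of this measure depends on how RSEM divides reads among isoforms, so small changes rest on that model.

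**Figure D5:**
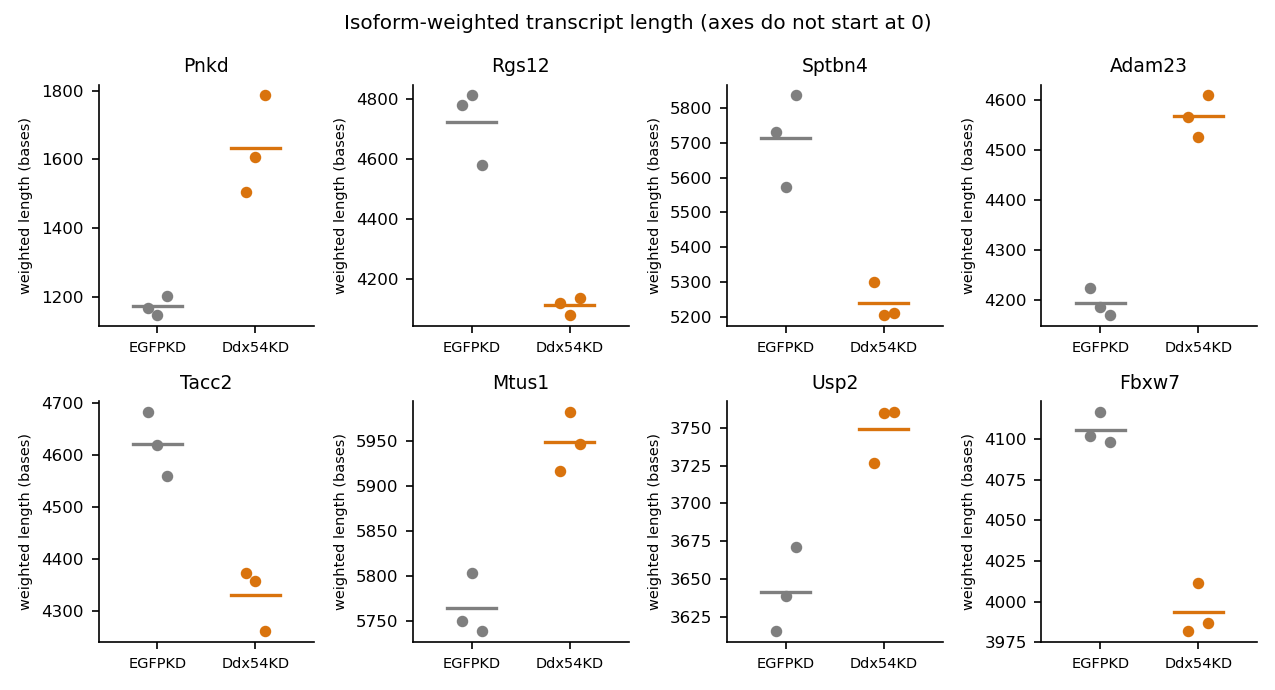
Isoform-weighted transcript length in bases in the 3 EGFPKD (grey) and 3 Ddx54KD (orange) libraries for 8 genes with called changes, with lines at the mean. Vertical axes differ between panels and do not start at 0. In each panel the 2 groups are apart, with Pnkd, Adam23, Mtus1 and Usp2 longer and Rgs12, Sptbn4, Tacc2 and Fbxw7 shorter in Ddx54KD.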

How the data were processed

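The authors turned poly(A) RNA reads of 15 libraries into gene values. The submitters' processing notes name RSEM and mm10. No version, aligner, annotation or strandedness is given in the sources. The authors' deposited gene tables hold expected counts, which are not scaled, TPM, and a transcript length weighted over isoforms by their abundance, per the file headers. The authors' deposited comparison of Ddx54KD with EGFPKD holds, per the file headers, a ratio of the groups and a posterior probability of differential expression.

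Expected counts were rounded and tested with edgeR 4.0.16 (R 4.3.3): filterByExpr, TMM factors, glmQLFit and glmQLFTest over all 15 libraries with group as the only term, and Benjamini-Hochberg adjustment over 14335 genes, which held 99.97% of counts. Weighted lengths were tested on the log2 scale with limma 3.58.1, for genes with a mean count of at least 200 and an SD of log2 length above 0.001. Scripts were tested on simulated data. Same-numbered libraries of EGFPKD and Ddx54KD deviated together (correlations of deviations from the group means between 0.178 and 0.252, 3 pairs; 0.106 to 0.335 over all 30 pairs of the series), so fits with the number as a block stand beside results they change.

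Of 23845 genes 23806 matched RefSeq (GRCm38.p6), which gave names, positions and promoter sequences. Members and gene lists were chosen with earlier results of these data known. Genes were named by size of change (log2 or TPM), with at least 5 TPM on average in 1 group and groups that did not overlap, by the smallest p within each list, and by the comparisons with the other knockdowns and of transcript length; some further list members are named after their values were seen. Alternatives were other scaling factors, filters and thresholds, DESeq2 1.42.0, limma-voom, the 6 libraries alone, the block and each library left out. A few genes that the rule would name are not reported here.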

Additional observations from a re-analysis of the deposited data

How the results depend on the processing

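The decrease of Ddx54 passed the threshold under every alternative run, with log2 changes of -1.94 to -1.71 when 1 library was left out. The 3483 genes called against EGFPKD became 5570 with the replicate block, 5730 with the block in the 6 libraries alone, 2161 without the libraries numbered 2, 1860 at an adjusted p under 0.01 and 534 at 2-fold or more, 3868 without Ddx24KD replicate 2, and 2232 to 3469 with a library of the 2 groups left out, the lowest without Ddx54KD replicate 3. The 25 genes called against the other knockdowns became 755 with the block, 144 with DESeq2, 44 with no count filter, 8 at an adjusted p under 0.01, 3 at 2-fold or more, and 6 to 129 with 1 library left out. The 14 genes with a changed transcript length became 38 with the block, 1 in the 6 libraries alone, 23 at a mean count of at least 1000, 9 at 50, 7 at an adjusted p under 0.01, and 7 to 17 with 1 library left out. The causes were not tested. The fits on the 6 libraries alone with the block, without Ddx24KD replicate 2 against EGFPKD, and without the libraries numbered 2 were chosen after seeing the data.

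For the 229 genes named against EGFPKD, 3736 of 3852 alternative values kept the direction and the call, 116 lost the call and 0 reversed; the losses fell on 33 genes and none came from the block. For the 16 named against the other knockdowns, 93 of 335 values lost the call and 0 reversed, again with the thresholds not counted. With 3 libraries a group, changes of low messages were not detectable where replicates spread widely, and intervals were not computed for isoform shares.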
